A study of Arabidopsis thaliana with 4 samples.

Results

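The camalexin synthesis genes are the 7 genes CYP79B2, CYP79B3, CYP71A12, CYP71A13, GSTF6, GGP1 and PAD3, chosen by their known place in the pathway and found by locus among the 34262 genes of each deposited table. Seedlings of Arabidopsis thaliana ecotype Col-0 were grown in long days at 22 °C, harvested at 14 days, and their total RNA was sequenced. The 4 genotypes, each with 1 listed sample, were wild type (WT), the mutant hda6, the double mutant ldl1/2 and the combination labelled hda6/ldl1/2, all without a treatment. HDA6 encodes an enzyme that removes acetyl groups from histones, and LDL1 with LDL2 encode LSD1-type enzymes that remove histone methyl groups. The alleles are not given in the sources used here. The files were the authors' tables of each mutant against WT, so every comparison shares the WT samples.

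Camalexin is the best known phytoalexin of Arabidopsis, a sulfur-containing indole compound made from tryptophan after attack by fungi or bacteria. CYP79B2 and CYP79B3 turn tryptophan into indole-3-acetaldoxime, which also feeds indole glucosinolates and other indole compounds. CYP71A13 and its tandem relative CYP71A12 dehydrate the aldoxime to indole-3-acetonitrile. The activated nitrile is conjugated to glutathione, a step to which the glutathione transferase GSTF6 has been linked, and the conjugate is trimmed by the gamma-glutamyl peptidase GGP1. PAD3, a cytochrome P450 also called CYP71B15, closes the thiazole ring and releases camalexin. In unchallenged seedlings the late genes are usually low, and the transcription factor WRKY33 is known to bind W-boxes upstream of PAD3 and to raise camalexin gene transcription after infection.

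The tables hold the larger of the 2 group means in RPKM (reads per kilobase of exon, corrected for library depth), beside the log2 fold change with its p-value and FDR. In the text, "rose" and "fell" mean a deposited FDR under 0.05. Low means lay on whole-read steps of 3 libraries for WT (48.6 to 51.6 M reads) and 2 for each mutant (40.2 to 49.4 M reads), but values per library are not in the tables, so no spread between libraries could be computed. No source used here says whether these libraries came from separate plants, and the deposited p-values may measure technical spread. Where a mutant mean is not printed in a table it was rebuilt here from the WT mean and the deposited fold change, and it is called a rebuilt mean. The implied standard error (SE) is the one that would give the deposited p-value under a normal distribution; for p-values listed as 0 only an upper limit could be had. HDA6 itself rose in hda6 and in the hda6/ldl1/2-labelled samples (log2 fold changes of 0.53 and 0.59 per the authors' deposited tables), and with no allele given its level does not check the label. LDL1 and LDL2 fell in ldl1/2 (log2 fold changes of -0.79 and -1.17 per the authors' deposited table). Neither fell in the hda6/ldl1/2-labelled samples (0.05 and -0.32 per the authors' deposited table), which go against that label at the transcript level, and every direction for them is given as labelled.

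The sequences upstream of the genes that moved together are shown first. CYP79B2 and CYP79B3 lie on different chromosomes and fell together in ldl1/2. Their 300 bases upstream of the annotated gene start (TAIR10.1, chr4:18524742-18525041 and chr2:9488113-9488412, both on the plus strand) are written 5′ to 3′, with runs of at least 12 bases that occur in both in capitals.
CYP79B2: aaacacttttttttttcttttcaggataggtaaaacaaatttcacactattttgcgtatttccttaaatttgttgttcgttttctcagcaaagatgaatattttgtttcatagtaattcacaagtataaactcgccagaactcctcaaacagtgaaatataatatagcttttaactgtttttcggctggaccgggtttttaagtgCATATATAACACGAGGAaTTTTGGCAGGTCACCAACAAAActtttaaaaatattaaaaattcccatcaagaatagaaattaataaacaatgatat
CYP79B3: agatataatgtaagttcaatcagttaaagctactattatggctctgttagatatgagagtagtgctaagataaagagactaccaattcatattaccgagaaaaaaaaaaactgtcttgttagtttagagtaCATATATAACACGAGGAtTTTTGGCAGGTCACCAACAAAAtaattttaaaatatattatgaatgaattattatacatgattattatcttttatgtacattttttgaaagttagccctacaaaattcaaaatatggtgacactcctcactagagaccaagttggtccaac
The capitals cover 39 bases in each. The longest run has 22 bases, begins at position -77 from the start of CYP79B2 and -151 from that of CYP79B3, and was found in this window of no other of 33938 nuclear genes. A run of this length would rarely recur in other windows whatever its role, so its absence there shows no function. The 2 genes are related, with coding sequences 80.9% identical over 1687 aligned bases, and a role of the run was not tested.

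CYP71A12 and CYP71A13 lie on the minus strand of chromosome 2, in the same neighbourhood, and are shown in the same way because CYP71A13 fell in all 3 comparisons and CYP71A12 in 2. RefSeq annotates no untranslated sequence for either, so the window runs from 300 to 61 bases before the annotated start (chr2:13101432-13101671 and chr2:13112049-13112288).
CYP71A12: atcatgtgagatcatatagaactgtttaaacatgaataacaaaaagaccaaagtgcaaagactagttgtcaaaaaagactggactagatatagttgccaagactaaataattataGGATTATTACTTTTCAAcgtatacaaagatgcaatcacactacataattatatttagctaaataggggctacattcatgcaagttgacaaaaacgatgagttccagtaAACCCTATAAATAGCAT
CYP71A13: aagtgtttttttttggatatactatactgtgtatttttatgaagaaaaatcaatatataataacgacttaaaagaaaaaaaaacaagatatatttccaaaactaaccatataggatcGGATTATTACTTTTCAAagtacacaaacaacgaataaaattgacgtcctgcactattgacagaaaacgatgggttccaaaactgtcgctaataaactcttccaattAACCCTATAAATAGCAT
In this shorter window 34 bases are in shared runs, the longest of 17 bases. The run at its end continues past the window in both genes. The bases nearer the start hold further shared runs and were not counted. These figures are thus not comparable with those of CYP79B2 and CYP79B3. The coding sequences of CYP71A12 and CYP71A13 are 90.4% identical over 1494 bases. Their first 90 coding bases, with the 12 bases that differ in capitals, show how reads can be told apart.
CYP71A12: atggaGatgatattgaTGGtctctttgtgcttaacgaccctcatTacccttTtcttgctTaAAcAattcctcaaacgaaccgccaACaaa
CYP71A13: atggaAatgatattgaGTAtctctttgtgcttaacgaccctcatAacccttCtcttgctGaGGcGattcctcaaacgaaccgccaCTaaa
No stretch of 150 bases, the length of 1 read, was identical in both transcripts, and 0.692% of stretches of 50 bases were.

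A search for the W-box (TTGACC or TTGACT, both strands) in the 1000 bases upstream found 3 in PAD3, 3 in CYP79B2, 2 in GSTF6 and 1 in GGP1. None was found in CYP79B3, CYP71A12 or CYP71A13, while 67.5% of 33938 nuclear genes hold at least 1. In the 300 bases upstream 2 were found in GSTF6, 1 in GGP1 and none in the other 5 genes, against 32.2% of all genes with at least 1. The shorter core TTGAC, which every W-box contains, occurred in that window at 3 places in each of GSTF6 and GGP1. It occurred at 2 places in each of CYP71A12 and CYP71A13, at none in CYP79B2, CYP79B3 or PAD3, and in 50.2% of all genes. The W-boxes nearest to PAD3 begin at positions -520 and -348 from its start, in the stretch chr3:9887367-9887586 (plus strand), and those of GSTF6 at -283 and -104 (chr1:662536-662775, minus strand). Both stretches are printed with the W-boxes in capitals.
PAD3: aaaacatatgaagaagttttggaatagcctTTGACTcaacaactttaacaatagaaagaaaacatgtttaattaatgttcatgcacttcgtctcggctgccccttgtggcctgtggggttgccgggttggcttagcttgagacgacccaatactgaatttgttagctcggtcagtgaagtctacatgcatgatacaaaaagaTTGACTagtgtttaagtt
GSTF6: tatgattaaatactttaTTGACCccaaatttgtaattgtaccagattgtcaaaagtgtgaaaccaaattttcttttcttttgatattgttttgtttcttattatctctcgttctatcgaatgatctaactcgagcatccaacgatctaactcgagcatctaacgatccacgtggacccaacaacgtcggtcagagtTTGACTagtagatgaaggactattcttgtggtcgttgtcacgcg
A match describes these letters only and shows no binding.

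In WT the 7 genes spanned 7.08 to 173 RPKM. GGP1 was highest at 173 RPKM, followed by GSTF6 (117), CYP79B2 (33.8), PAD3 (24.0), CYP79B3 (18.1), CYP71A13 (10.05) and CYP71A12 (7.08), all means from the authors' deposited tables. The tables give no spread of a level, so this order is a description. All 7 reached 1 RPKM in every comparison.

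**Figure D1:**
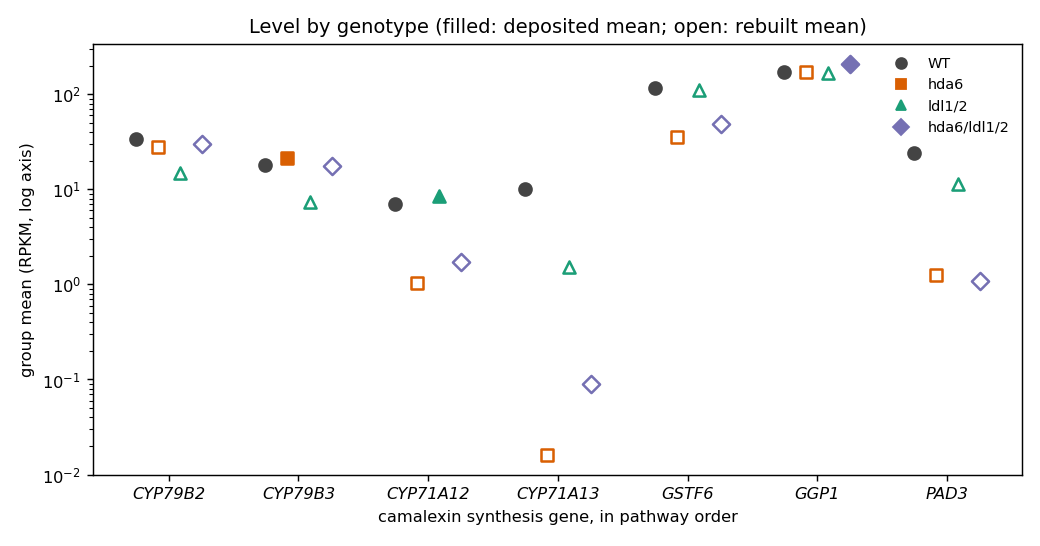
Group mean of each camalexin synthesis gene in RPKM (log axis), by genotype, without error bars because the tables hold none; filled symbols are means printed per the authors' deposited tables and open symbols are rebuilt means. CYP71A13 drops furthest, from 10.05 RPKM in WT to a rebuilt 0.0160 RPKM in hda6, while GGP1 lies between 167 and 211 RPKM in all 4 genotypes.

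CYP71A12, CYP71A13, GSTF6 and PAD3, all after the first step, fell in hda6, while CYP79B2, CYP79B3 and GGP1 did not pass the test there. In hda6, CYP71A12, CYP71A13, GSTF6 and PAD3 fell and none of the 7 rose per the authors' deposited table, where 4.31% of 18985 genes of at least 1 RPKM fell and 4.38% rose (8.69% in all). In the hda6/ldl1/2-labelled samples the same 4 genes fell and GGP1 rose, where 7.82% of 19052 such genes fell and 9.59% rose (17.4% in all) per the authors' deposited table. In ldl1/2, CYP79B2, CYP79B3, CYP71A13 and PAD3 fell and none rose, where 4.09% of 18928 genes fell and 4.41% rose (8.5% in all) per the authors' deposited table. The 7 genes had a median log2 fold change of -1.64 in hda6 and -1.11 in ldl1/2, with -1.13 in the hda6/ldl1/2-labelled samples, computed from the authors' deposited tables, whereas the median of all genes of at least 1 RPKM was -0.01 in each. Without CYP71A12, CYP71A13 and GSTF6, which have close copies, the median was -0.095 in hda6, -1.16 in ldl1/2 and 0.030 in the hda6/ldl1/2-labelled samples, since 3 of the 4 genes that fell in hda6 and in the hda6/ldl1/2-labelled samples are then left out. CYP71A13 and PAD3 were the members lower in all 3 comparisons, which share their WT samples. By size alone, log2 fold changes of at least 1 in either direction were found for 4 of the 7 genes in each comparison, against 4.01% of all genes of at least 1 RPKM in hda6, 3.15% in ldl1/2 and 6.03% in the hda6/ldl1/2-labelled samples. RNA from whole seedlings cannot separate fewer cells that express a gene from less RNA per cell.

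**Figure D2:**
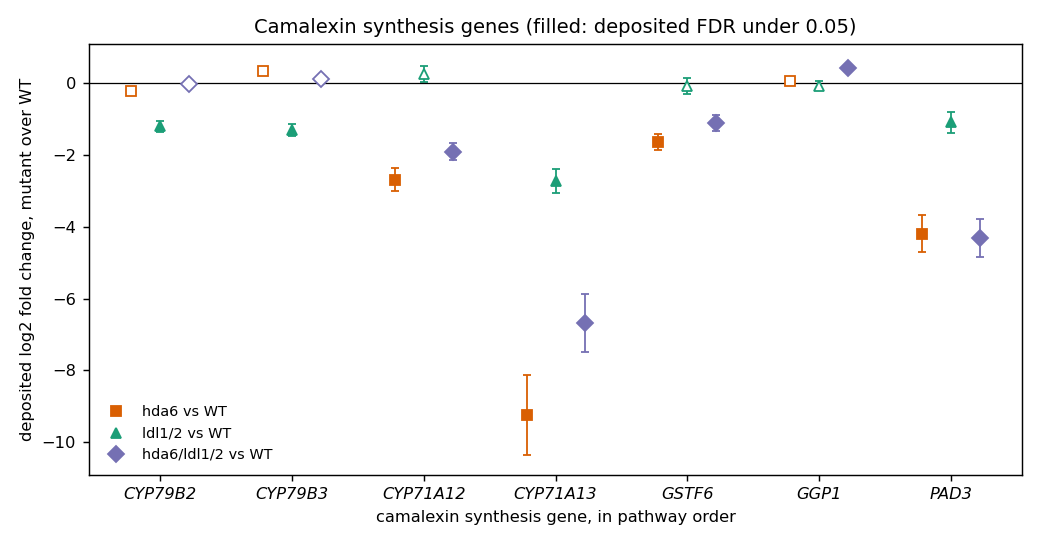
Deposited log2 fold change of each camalexin synthesis gene against WT; bars are the implied SE, or its upper limit where the deposited p-value is 0, and filled symbols have a deposited FDR under 0.05. Among the filled symbols, those of CYP79B2 and CYP79B3 are the ldl1/2 values near -1.3, whereas CYP71A12, GSTF6 and PAD3 are lowest in hda6 or the hda6/ldl1/2-labelled samples.

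The entry enzymes CYP79B2 and CYP79B3 fell in ldl1/2. CYP79B2 (AT4G39950, chromosome 4, 18525042 to 18527602) had a mean of 33.8 RPKM in WT and rebuilt means of 27.8 for hda6, 14.9 for ldl1/2 and 30.2 in the hda6/ldl1/2-labelled samples. Its log2 fold change was -1.22 in ldl1/2 (implied SE at most 0.15, FDR listed as 0) per the authors' deposited table. In hda6 it was -0.22 (FDR 0.384) and in the hda6/ldl1/2-labelled samples -0.03 (FDR 1.00) per the authors' deposited tables, so ldl1/2 stands apart as the low genotype. CYP79B3 (AT2G22330, chromosome 2, 9488413 to 9491404) had 18.1 RPKM in WT, 21.6 in hda6, and rebuilt means of 7.43 in ldl1/2 and 17.6 in the hda6/ldl1/2-labelled samples. It fell by 1.32 in ldl1/2 (implied SE at most 0.16, FDR listed as 0), with 0.31 in hda6 (FDR 0.0970) and 0.09 in the hda6/ldl1/2-labelled samples (FDR 0.928) per the authors' deposited tables.

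The summed mean of the pair was 51.9 RPKM in WT, 49.4 in hda6, 22.3 in ldl1/2 and 47.8 in the hda6/ldl1/2-labelled samples, so ldl1/2 held 43.0% of the WT sum. CYP79B2 made up 65.1% of that sum in WT and 66.7% in ldl1/2, which shows that both copies declined in like proportion. The samples labelled hda6/ldl1/2 stood above ldl1/2 by 1.19 in log2 for CYP79B2 and by 1.41 for CYP79B3, with combined implied SEs of at most 0.19 and 0.20. These differences between mutants were not tested; the combined SE counts the shared WT error, which cancels in the difference, and so is not too small on that account.

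CYP71A13, the aldoxime dehydratase best tied to camalexin, was lowest of the 7 genes in hda6. CYP71A13 (AT2G30770, chromosome 2, 13109909 to 13111988) had 10.05 RPKM in WT and rebuilt means of 0.0160 for hda6, 1.53 for ldl1/2 and 0.0898 in the hda6/ldl1/2-labelled samples. The log2 fold changes were -9.24 in hda6, -2.75 in ldl1/2 (implied SE 0.33, FDR 2.76e-14) and -6.67 in the hda6/ldl1/2-labelled samples, with the other FDRs listed as 0 per the authors' deposited tables. Among genes of at least 1 RPKM this was the 9th lowest fold change in hda6 and the 12th lowest in each of the other comparisons. The hda6 mean rests on about 2.26 reads over the group against about 2261 in WT, which by counting error alone (exact Poisson interval, 95%) is 197-fold to 5878-fold lower. Most low values came in steps of a read pair, so the counting error is larger than this interval gives. The samples labelled hda6/ldl1/2 held about 12.5 reads, and ldl1/2 about 190.

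CYP71A12, which makes the same nitrile and is better known from roots and other indole compounds, fell in 2 of the 3 comparisons. CYP71A12 (AT2G30750, chromosome 2, 13099486 to 13101371) had 7.08 RPKM in WT, 8.46 in ldl1/2, and rebuilt means of 1.05 in hda6 and 1.71 in the hda6/ldl1/2-labelled samples. It fell by 2.70 in hda6 (implied SE at most 0.33, FDR listed as 0) and by 1.92 in the hda6/ldl1/2-labelled samples (implied SE 0.24, FDR 8.71e-14) per the authors' deposited tables. In ldl1/2 it stood at 0.23 (implied SE 0.22, FDR 1.00) per the authors' deposited table. Within the pair CYP71A13 gave 58.7% of the summed RPKM in WT, 15.3% in ldl1/2, 4.98% in the hda6/ldl1/2-labelled samples and 1.502% in hda6. The sum itself was 17.1 RPKM in WT, 9.99 in ldl1/2, 1.80 in the hda6/ldl1/2-labelled samples and 1.06 in hda6, which is 58.3%, 10.5% and 6.21% of WT.

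The last exon of CYP71A13 overlaps AT2G30766, a gene on the opposite strand, by 330 of its 1494 exon bases (22.1%), and the kit named in the labels does not mark strand, so reads there cannot be assigned by strand. AT2G30766 (18.5 RPKM in WT) fell by 1.12 in ldl1/2 (FDR 2.70e-06) and stood at -0.33 in hda6 (FDR 0.568) and -0.49 in the hda6/ldl1/2-labelled samples (FDR 0.108) per the authors' deposited tables. The CYP71A13 value in ldl1/2 may thus include reads of its neighbour, a share that was not tested, while in hda6 nearly no read was assigned to CYP71A13 although AT2G30766 was expressed. On the other side, AT2G30780 stood at -0.04 in hda6 (FDR 1.00) per the authors' deposited table.

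**Figure D3:**
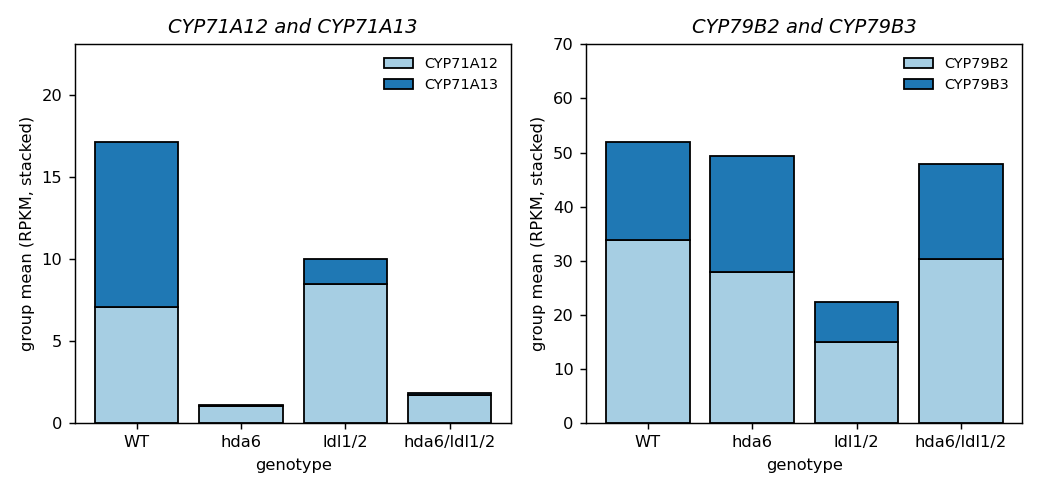
Stacked group means in RPKM of CYP71A12 with CYP71A13 (left) and of CYP79B2 with CYP79B3 (right) by genotype, deposited or rebuilt, without error bars because the tables hold none. The CYP71A pair is smallest in hda6 at 1.06 RPKM and the CYP79B pair smallest in ldl1/2 at 22.3 RPKM.

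GSTF6 fell in hda6 and in the hda6/ldl1/2-labelled samples, and GGP1, the next enzyme, fell in no comparison. GSTF6 (AT1G02930, chromosome 1, 661088 to 662475) had 117 RPKM in WT and rebuilt means of 36.0 for hda6, 111 for ldl1/2 and 48.5 in the hda6/ldl1/2-labelled samples. It fell by 1.64 in hda6 (implied SE 0.22, FDR 1.89e-11) and by 1.13 in the hda6/ldl1/2-labelled samples (implied SE 0.22, FDR 1.14e-05), and stood at -0.10 in ldl1/2 (FDR 1.00) per the authors' deposited tables. Its neighbour GSTF7, 94.7% identical in coding sequence, also fell in hda6, by 1.07 (FDR 6e-05), and stood at 0.03 in ldl1/2 and -0.51 in the hda6/ldl1/2-labelled samples (FDR 0.132) per the authors' deposited tables. No stretch of 150 bases was shared between their transcripts but 9.41% of GSTF6 stretches of 50 bases were. Single values of the 2 copies are thus uncertain, to a degree that was not measured. On the other side GSTF5, low in WT at a rebuilt 0.614 RPKM, rose by 1.86 in ldl1/2 and by 2.71 in the hda6/ldl1/2-labelled samples (FDR 7.80e-05 and 6.46e-11), with 1.09 in hda6 (FDR 0.0864) per the authors' deposited tables.

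GGP1 (AT4G30530, chromosome 4, 14920376 to 14922519), which also serves glucosinolate synthesis, had 173 RPKM in WT, rebuilt means of 171 in hda6 and 167 in ldl1/2, and 211 RPKM in the hda6/ldl1/2-labelled samples. Its log2 fold changes were 0.04 in hda6 (FDR 1.00), -0.08 in ldl1/2 (FDR 1.00) and 0.42 in the hda6/ldl1/2-labelled samples (implied SE 0.11, FDR 0.00357) per the authors' deposited tables. The rise is small, and under the plain ratio of group means it was 0.28 and no longer past the threshold. Its relative GGP3 stood at -0.06, -0.10 and -0.03 per the authors' deposited tables.

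PAD3, the final enzyme, fell in every comparison, but to unlike depths. PAD3 (AT3G26830, chromosome 3, 9887917 to 9889791) had 24.0 RPKM in WT and rebuilt means of 1.25 for hda6, 11.4 for ldl1/2 and 1.098 in the hda6/ldl1/2-labelled samples, that is 5.24%, 47.5% and 4.59% of WT. The log2 fold changes were -4.20 in hda6 and -4.31 in the hda6/ldl1/2-labelled samples (implied SE at most 0.51 and 0.52, FDR listed as 0), and -1.11 in ldl1/2 (implied SE 0.30, FDR 0.00736) per the authors' deposited tables. The samples labelled hda6/ldl1/2 and hda6 differed by -0.12 in log2 with a combined implied SE of at most 0.73, whereas hda6 minus ldl1/2 was -3.09 with at most 0.59, differences that were not tested. By group mean the order of the genotypes was WT, ldl1/2, then hda6 and the hda6/ldl1/2-labelled samples, which these values do not separate.

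For the other members the hda6/ldl1/2-labelled samples stood above hda6 by 2.57 in CYP71A13 (combined implied SE at most 1.37), 0.78 in CYP71A12 (at most 0.40), 0.51 in GSTF6 (0.31) and 0.38 in GGP1 (0.16). The difference was 0.19 in CYP79B2 and -0.22 in CYP79B3, each with a combined implied SE of 0.16. None of these was tested, and the CYP71A13 value rests on few reads.

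Among known regulators of camalexin synthesis, the transcription factors WRKY33, ANAC042, WRKY18 and WRKY40 fell both in hda6 and in the hda6/ldl1/2-labelled samples. Of 16 listed regulators 15 reached 1 RPKM. Of these 6 fell and none rose in hda6, 1 fell in ldl1/2, and 8 fell and none rose in the hda6/ldl1/2-labelled samples per the authors' deposited tables, with medians of -0.24, -0.11 and -0.52. Over all genes of at least 1 RPKM, 8.69%, 8.5% and 17.4% changed in the 3 comparisons, so the single call in ldl1/2 is no more than that share. WRKY33 had 18.1 RPKM in WT and rebuilt means of 10.8 for hda6, 16.4 for ldl1/2 and 6.97 in the hda6/ldl1/2-labelled samples. It fell by 0.70 in hda6 (implied SE 0.12, FDR 2.46e-07) and by 1.25 in the hda6/ldl1/2-labelled samples (FDR listed as 0), with -0.18 in ldl1/2 (FDR 0.716) per the authors' deposited tables. WRKY33 was thus lower in the hda6/ldl1/2-labelled samples than in hda6 by 0.55 (combined implied SE at most 0.19, not tested). The PAD3 difference, hda6/ldl1/2-labelled samples minus hda6, was -0.12 (combined implied SE at most 0.73, not tested), and the 2 genes were not compared.

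ANAC042, a NAC factor required for full camalexin induction, fell in hda6 (-2.97, FDR listed as 0) and in the hda6/ldl1/2-labelled samples (-2.07, FDR 1.32e-08), with -0.33 in ldl1/2 (FDR 0.979) per the authors' deposited tables. WRKY40, a WRKY factor that damps immune responses together with WRKY18, fell in all 3 comparisons, at -1.63 in hda6, -1.02 in ldl1/2 and -2.49 in the hda6/ldl1/2-labelled samples (FDR 9.15e-13, 3.56e-05 and listed as 0) per the authors' deposited tables. WRKY18 stood at -1.10 in hda6 and -0.86 in the hda6/ldl1/2-labelled samples per the authors' deposited tables. MYB51, a MYB factor of indole glucosinolate synthesis, fell in the hda6/ldl1/2-labelled samples (-0.76, FDR 0.000938), and so did MYB122, of the same group but under the 1 RPKM limit at 0.471 RPKM in WT (-3.84, FDR 0.000855, about 4.37 reads) per the authors' deposited table. MYB34, the third of that group, passed in none (0.23, -0.11 and 0.23), and MYB51 and MYB122 did not pass in hda6 (FDR 0.166 and 0.429) per the authors' deposited tables. Of the kinases, MKK9 fell in hda6 (-0.50, FDR 0.000778) and in the hda6/ldl1/2-labelled samples (-0.71) per the authors' deposited tables. MKK4 fell in the hda6/ldl1/2-labelled samples (-0.58, FDR 0.00738) and only just passed in hda6 (-0.50, FDR 0.0468) per the authors' deposited tables. CPK6 fell in the hda6/ldl1/2-labelled samples (-0.52) per the authors' deposited table. MPK3 and MPK6, the kinases that act on WRKY33, stood between -0.20 and 0.18 in every comparison per the authors' deposited tables.

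**Figure D4:**
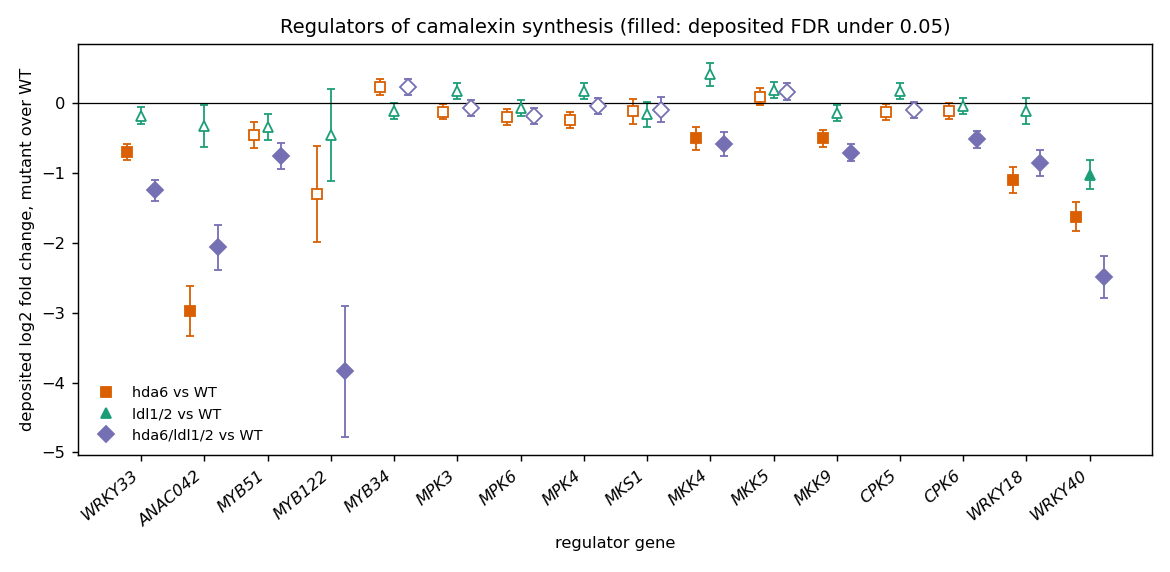
Deposited log2 fold change of 16 regulators of camalexin synthesis against WT; bars are the implied SE, or its upper limit where the deposited p-value is 0, and filled symbols have a deposited FDR under 0.05. ANAC042 reaches -2.97 in hda6 and WRKY40 -2.49 in the hda6/ldl1/2-labelled samples, while MPK3 and MPK6 lie near 0.

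Among genes that supply tryptophan, glutathione and electrons, all calls were under 1 in log2. Of 12 tryptophan synthesis genes, 3 fell and 1 rose in hda6, 2 fell in ldl1/2, and 2 rose in the hda6/ldl1/2-labelled samples per the authors' deposited tables, with medians of -0.07, -0.19 and 0.05. Of all genes of at least 1 RPKM, 8.69% changed in hda6, 8.5% in ldl1/2 and 17.4% in the hda6/ldl1/2-labelled samples. The 2 calls in the hda6/ldl1/2-labelled samples are near that last share. In hda6 the anthranilate synthase subunit ASB1 (-0.53), IGPS, which makes indole-3-glycerol phosphate (-0.50), and the transferase PAT1 (-0.47) fell, while the tryptophan synthase TSB2 rose by 0.56 per the authors' deposited table. TSB2 also rose in the hda6/ldl1/2-labelled samples, by 0.63 per the authors' deposited table. GSH1, the first enzyme of glutathione synthesis, fell in ldl1/2 (-0.43), and the P450 reductase gene ATR1 in the hda6/ldl1/2-labelled samples (-0.39) per the authors' deposited tables. The other glutathione synthesis gene, GSH2, and the other reductase, ATR2, did not pass the test in any comparison.

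In the indole glucosinolate branch, which competes for the aldoxime, 6 genes fell in ldl1/2, where CYP79B2 and CYP79B3 fell as well, and CYP81F4, which modifies the indole ring, rose (0.47, FDR 0.00742) per the authors' deposited table. Of 13 such genes 6 fell and 1 rose in ldl1/2, 1 fell in hda6, and 1 fell and 1 rose in the hda6/ldl1/2-labelled samples, with medians of -0.43, 0.00 and 0.08 per the authors' deposited tables. The calls in hda6 and in the hda6/ldl1/2-labelled samples are near the 8.69% and 17.4% of all genes that changed there. UGT74B1, the glucosyltransferase of the core pathway, fell in ldl1/2 (-0.72), as did SUR1, its C-S lyase (-0.71), and CYP81F3, which modifies the indole ring (-1.06), per the authors' deposited table. CYP83B1, the P450 that draws aldoxime into this branch, stood at -0.43 in ldl1/2 (FDR 0.121) per the authors' deposited table. IGMT2, a methyltransferase of indole glucosinolates, fell instead in hda6 (-1.01) and in the hda6/ldl1/2-labelled samples (-1.43) per the authors' deposited tables.

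Of 3 measured genes for other indole defence products, 1 fell in hda6 and 2 in the hda6/ldl1/2-labelled samples per the authors' deposited tables. None was called in ldl1/2. Among all genes of at least 1 RPKM, 8.69% changed in hda6, 8.5% in ldl1/2 and 17.4% in the hda6/ldl1/2-labelled samples. FOX1, an oxidase that makes indole carbonyl nitrile, fell in hda6 (-2.83) and in the hda6/ldl1/2-labelled samples (-1.95), with -0.03 in ldl1/2 per the authors' deposited tables. Of the 3 ABC transporters linked to camalexin export, ABCG40 fell in each comparison (-3.70 in hda6, -2.58 in ldl1/2 and -4.35 in the hda6/ldl1/2-labelled samples), while ABCG34 and ABCG36 did not pass the test in any per the authors' deposited tables. GSTU4, a tau class transferase also proposed to conjugate the camalexin nitrile, fell in hda6 (-4.19) and in the hda6/ldl1/2-labelled samples (-2.42), and stood at 0.18 in ldl1/2 (FDR 1.00) per the authors' deposited tables. GSTF2, a phi class transferase that binds camalexin in vitro, fell in hda6 (-1.29) and in the hda6/ldl1/2-labelled samples (-1.11), whereas its near copy GSTF3 rose in the latter (1.52, FDR 0.00496), per the authors' deposited tables. AAO1, an aldehyde oxidase acting on indole aldehydes, fell in the hda6/ldl1/2-labelled samples (-0.59) per the authors' deposited table.

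**Figure D5:**
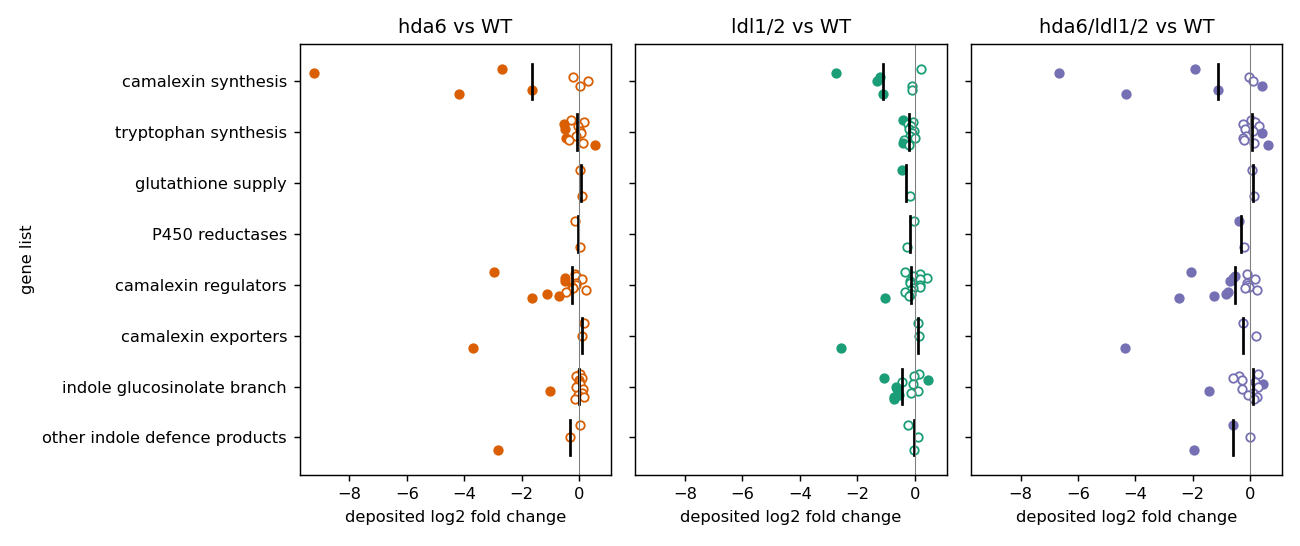
Deposited log2 fold changes of the genes of at least 1 RPKM in 8 lists, 1 panel for each mutant against WT; each symbol is a gene, filled with a deposited FDR under 0.05, and the black line is the list median. The camalexin synthesis median lies at -1.64, -1.11 and -1.13 while tryptophan synthesis medians lie between -0.19 and 0.05.

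Of the 14 genes next to a member on its chromosome, 9 reached 1 RPKM; 3 fell and 1 rose in hda6, 2 fell and 1 rose in ldl1/2, and 1 fell and 1 rose in the hda6/ldl1/2-labelled samples per the authors' deposited tables. Of all genes of at least 1 RPKM, 8.69% changed in hda6, 8.5% in ldl1/2 and 17.4% in the hda6/ldl1/2-labelled samples, and the last share is close to that of the neighbours. These neighbours were looked up after the members' values were known. APK2, which supplies activated sulfate to glucosinolate synthesis and lies next to CYP79B2, fell in ldl1/2 (-1.14) and in hda6 (-0.46), with -0.05 in the hda6/ldl1/2-labelled samples per the authors' deposited tables. PES2 (AT3G26840), which makes phytyl esters in plastids and lies next to PAD3, fell in hda6 (-1.83) and in the hda6/ldl1/2-labelled samples (-1.16), with 0.29 in ldl1/2 per the authors' deposited tables. The remaining neighbours of PAD3, GGP1 and CYP71A12 did not fall, and PTI12 beside CYP71A12 rose by 0.37 in hda6 per the authors' deposited table.

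By the Euclidean distance of their 3 log2 fold changes, the genes nearest to PAD3 among 18596 genes of at least 1 RPKM in every table were ZAT8 (0.563), ARD (0.586), AT5G63225 (0.808), FMO1 (0.903) and BGL2 (1.04). ZAT8, a zinc finger gene, stood at -3.69, -1.29 and -4.17 in hda6, ldl1/2 and the hda6/ldl1/2-labelled samples per the authors' deposited tables. ARD, annotated in the tables under that name, stood at -4.22, -1.03 and -3.73, and BGL2, the glucanase gene also called PR2, at -4.93, -1.19 and -3.58 per the authors' deposited tables. Of these 5 genes none passed the FDR in ldl1/2, where the lowest FDR was 0.0722 (ZAT8). FMO1, which makes N-hydroxypipecolic acid, stood at -0.22 there per the authors' deposited table.

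Some of the tissue markers differed between the genotypes as well. The 10 root markers summed to 82.0 RPKM in WT, 71.9 in hda6, 85.2 in ldl1/2 and 43.9 in the hda6/ldl1/2-labelled samples, where 3 of 8 root genes of at least 1 RPKM (CASP1 -1.18, PHT1;1 -0.99 and EXP7 -0.71) fell and none rose per the authors' deposited table. No root gene of at least 1 RPKM changed in hda6 per the authors' deposited table, where CYP71A13, PAD3, CYP71A12 and GSTF6 fell. In ldl1/2, where CYP79B2, CYP79B3, CYP71A13 and PAD3 fell, only ESB1 of the root genes fell (-0.64, FDR 0.00236) per the authors' deposited table. The 7 green tissue markers summed to 14528 RPKM in WT, 14964 in hda6, 13201 in ldl1/2 and 15373 in the hda6/ldl1/2-labelled samples. Of them LHCB1.1, LHCB2.1 and LHCB3, light-harvesting genes, rose in hda6 (1.11, 1.26 and 0.94) and fell in ldl1/2 (-1.02, -0.72 and -0.49) per the authors' deposited tables. In the hda6/ldl1/2-labelled samples the same 3 genes rose (1.00, 1.18 and 1.08), as did the photosystem gene PSBO1 (0.50, FDR 0.000166), per the authors' deposited table, and no marker was listed at 0 in any group. The other green tissue markers, RBCS1A, GAPA and RCA, stood between -0.19 and 0.18 and passed the test in no comparison per the authors' deposited tables. For comparison with these marker calls, 8.69% of all genes of at least 1 RPKM changed in hda6. The share was 8.5% in ldl1/2 and 17.4% in the hda6/ldl1/2-labelled samples. The part of tissue makeup in the camalexin gene values was not tested.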

How the data were processed

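Per the labels, RNA was taken from seedlings of 4 genotypes and libraries were made with a TruSeq RNA kit; Bowtie and TAIR10 appear among the submitters' processing notes. The counting tool and the test are not given in the sources used here. The authors' deposited tables hold the larger group mean in RPKM, the log2 and signed fold changes, and p-values with their FDR. The headers give no unit for the mean, which was read from whole-read steps (tolerance 0.3%, met by at least 98.9% of low values in each group). The depths came from these same low values, so that share is a fit and no independent check. With shifted steps 38.7% of WT values still met the tolerance. This share was 5.45% in ldl1/2 and 0% in hda6 and the hda6/ldl1/2-labelled samples. Recomputing the Benjamini-Hochberg adjustment gave the deposited FDR to within 9.13e-05, and 9357 of 34262 genes had no fold change. The larger group mean is a value of the comparison and carries no error.

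The planned test on values per library could not be used, since the tables hold none; calls rest on the deposited FDR. Genes were matched by position to TAIR10.1 (33191 matched once, all 19493 comparable locus names equal). The RPKM ratio differed from the deposited log2 fold change by -0.06, 0.03 and -0.13 in hda6, ldl1/2 and the hda6/ldl1/2-labelled samples, an offset used to rebuild means that are not printed. Read numbers come from exon lengths and the depths found here, and their intervals cover counting error only. The depth step and the p-value adjustment were tested on simulated data.

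Named genes are the 7 members, regulators past the FDR and WRKY33, up to 4 genes per other list with the largest change, and the 5 genes nearest to PAD3; MYB34, MPK3, MPK6, CYP83B1, CYP81F4, GGP3, GSH2, ATR2, ABCG34, ABCG36 and the genes next to members were added after their values were seen. Members and lists were chosen with earlier results of these data known. Python 3.11.15, pandas 2.3.3, scipy 1.17.1 and Biopython 1.88 were used.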

Additional observations from a re-analysis of the deposited data

How the results depend on the processing

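The number of camalexin synthesis genes past the threshold (4 in hda6, 4 in ldl1/2, 5 in the hda6/ldl1/2-labelled samples) was recomputed at an FDR of 0.01, with p-values adjusted over genes that have a fold change, and by size (log2 fold change at or beyond 1 or -1); it stayed at 4, 4 and 5 except by size in the hda6/ldl1/2-labelled samples, where it was 4. Over all genes, 3740 passed in the hda6/ldl1/2-labelled samples at an FDR of 0.05 and 2485 at 0.01. Without CYP71A12, CYP71A13 and GSTF6, which have close copies, the median of the remaining genes was -0.095 in hda6 and 0.030 in the hda6/ldl1/2-labelled samples, since 3 of the 4 genes that fell were left out. Under the ratio of group means the median in the hda6/ldl1/2-labelled samples was -1.26. Of 63 recomputed values of single genes 4 changed direction: GGP1 in hda6 turned to -0.021 under both the pseudocount of 1 and the ratio of group means, and CYP79B3 in the hda6/ldl1/2-labelled samples to -0.039 and -0.042 under them, none of which had passed the test, and GGP1 in the hda6/ldl1/2-labelled samples lost its call under the ratio of group means (0.28). No call was made under the pseudocount of 1, and genes with a p-value listed as 0 kept it under the other settings. The ratio for single genes was added after seeing the data. Leaving out a library was not possible, because the tables hold group means only. No paired analysis was possible because the tables carry no replicate numbers. Depth limits CYP71A13 in hda6, which rests on about 2.26 reads.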
